A study of Mus musculus with 18 samples.

Results

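The genes described here are 9 transcriptional regulators of smooth muscle, chosen by name from the 57180 genes of the count table: Srf, its coactivators Myocd, Mrtfa and Mrtfb, and the Krüppel-like factors Klf2, Klf4, Klf5, Klf6 and Klf10. RNA was sequenced from smooth muscle cells isolated from the thoracic aorta of C57BL/6 mice and grown in culture. Every group had been transfected with an siRNA, either against Itgav, which encodes integrin αV, or a scramble control. There were 6 groups of 3 libraries: Itgav siRNA with TGF-β, scramble with TGF-β, Itgav siRNA with PDGF-BB, scramble with PDGF-BB, Itgav siRNA unstimulated and scramble unstimulated. The series title ties integrin αV to aneurysm and dissection of the aorta. Effects of losing Itgav cannot be told apart from other effects of its siRNA, and the age and sex of the mice, the number of siRNAs, the doses and the times were not given in the labels. Whether the replicates of a group came from separate cultures is not stated, and p-values therefore cover only how far these libraries differ, a spread that may be technical.

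SRF is a DNA-binding protein that recognises the CArG box, a short motif found near many contractile, cytoskeletal and immediate early genes. Myocardin, the product of Myocd, is a coactivator restricted largely to muscle, while MRTF-A and MRTF-B are held in the cytoplasm by unpolymerised actin and move to the nucleus when actin polymerises. The ternary complex factors of the ELK group compete with them for SRF. Krüppel-like factors bind CACCC and GC-rich boxes, and KLF4 and KLF5 are known from smooth muscle that loses its contractile state, whereas KLF2 is best known from endothelium under flow.

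Library totals were between 17705072 and 21592916 deposited counts, and all 9 regulators were among the 15832 genes that passed the low-count filter. Itgav stood at 5.16% of the scramble mean with TGF-β, 7.13% with PDGF-BB and 4.77% without stimulus, so the siRNA labels held in every medium. Every library contained smooth muscle RNA: the summed level of Acta2, Tagln, Myh11, Cnn1, Smtn and Lmod1 was 3240 to 3400 CPM with Itgav siRNA and 6610 to 7160 CPM with scramble under TGF-β, 363 to 373 and 939 to 967 CPM under PDGF-BB, and 981 to 1100 and 2070 to 2120 CPM without stimulus. CPM is the count of a gene scaled to a common library size. Acta2 and Tagln carried most of these smooth muscle sums, whereas Myh11 lay between 4.32 and 31.8 CPM. In Itgav siRNA cells TGF-β raised 4 of the 6 markers and lowered 2. Those 2 were Myh11, at 7.96 against 20 CPM without stimulus, and Lmod1, at 54 against 90.3 CPM. Of 10 macrophage markers, 5 passed the low-count filter. The macrophage list summed to 12.1 to 14.9 CPM with Itgav siRNA and 9.32 to 10.7 CPM with scramble under TGF-β. Its sums were 24.8 to 27 and 24.1 to 26.1 CPM under PDGF-BB, and 19.5 to 20.9 and 17.6 to 20.6 CPM without stimulus. By edgeR's test at an adjusted p under 0.05, Itgav siRNA raised 24.1% and lowered 24.3% of all genes tested with TGF-β. With PDGF-BB it raised 29.4% and lowered 29.9%, and without stimulus 25.9% and 27.5%. Of 10 adventitial fibroblast markers it raised 3 and lowered 3 with TGF-β (median log2 fold change 0.24). With PDGF-BB it raised 6 and lowered 1 of these markers (0.75), and without stimulus 7 and 1 (0.73). The fibroblast markers summed to 805 to 868 CPM with Itgav siRNA and 886 to 964 CPM with scramble under TGF-β, 1180 to 1250 and 1030 to 1120 CPM under PDGF-BB, and 1070 to 1100 and 866 to 936 CPM without stimulus. Gsn, set apart after its values were seen, carried most of these sums, and the other 9 summed to 106 to 114 and 102 to 114 CPM, 243 to 251 and 254 to 264 CPM, and 185 to 199 and 183 to 193 CPM in the same media and order. The 6 mesothelial markers summed to 25.3 to 31.1 CPM with Itgav siRNA and 62.1 to 64.6 CPM with scramble under TGF-β. Under PDGF-BB the sums were 81.5 to 90 against 194 to 219 CPM, and without stimulus 90.5 to 93.2 against 155 to 166 CPM. Krt19, Upk1b and Upk3b carried most of these sums. By edgeR's test, 3, 4 and 3 of the 6 fell in these media. With TGF-β 1 rose, Wt1, at 1.84 against 0.789 CPM. A list of 6 interferon-stimulated genes was higher with Itgav siRNA, summing to 508 to 580 CPM against 43.7 to 63 CPM under TGF-β, 3070 to 4680 against 71 to 98.5 CPM under PDGF-BB and 5160 to 5970 against 75.8 to 200 CPM without stimulus. The part of these other cells and of the interferon genes in the results below was not tested. In bulk RNA, fewer cells of a type and less RNA per cell cannot be told apart. Replicate 1 of scramble PDGF-BB stood furthest from its group, at 11.7 against replicate 2 for chi-square over its degrees of freedom, where the closest pair of replicates gave 2.2. Leaving it out ended 1 call among the regulators, that of Srf under PDGF-BB in scramble cells.

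With Itgav siRNA, Srf, Myocd, Mrtfa and Klf2 fell in every medium, and no regulator rose in every medium. That is 4 of 9 called lower in all 3 media, where 14.9% of all genes tested were, and 0 of 9 called higher in all 3, where 12.9% were. The count of 0 was the same at an unadjusted p under 0.05 in edgeR and with DESeq2. Here and below, a gene counts as called where edgeR's quasi-likelihood test gave an adjusted p under 0.05. Under TGF-β 2 of the 9 rose and 6 fell, against 24.1% and 24.3% of all genes, where 48.4% were called in either direction. Under PDGF-BB 4 rose and 5 fell, against 29.4% and 29.9% of all genes, or 59.3% in either direction. Without stimulus 1 rose and 5 fell, against 25.9% and 27.5% of all genes, or 53.4% in either direction. The median log2 fold change of the 9 was -0.46, -0.27 and -0.18 in these 3 media, while the median over all genes was within 0.0233 of 0 in every comparison. Errors after CPM values are SDs over 3 libraries and errors after log2 fold changes are standard errors.

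**Figure D1:**
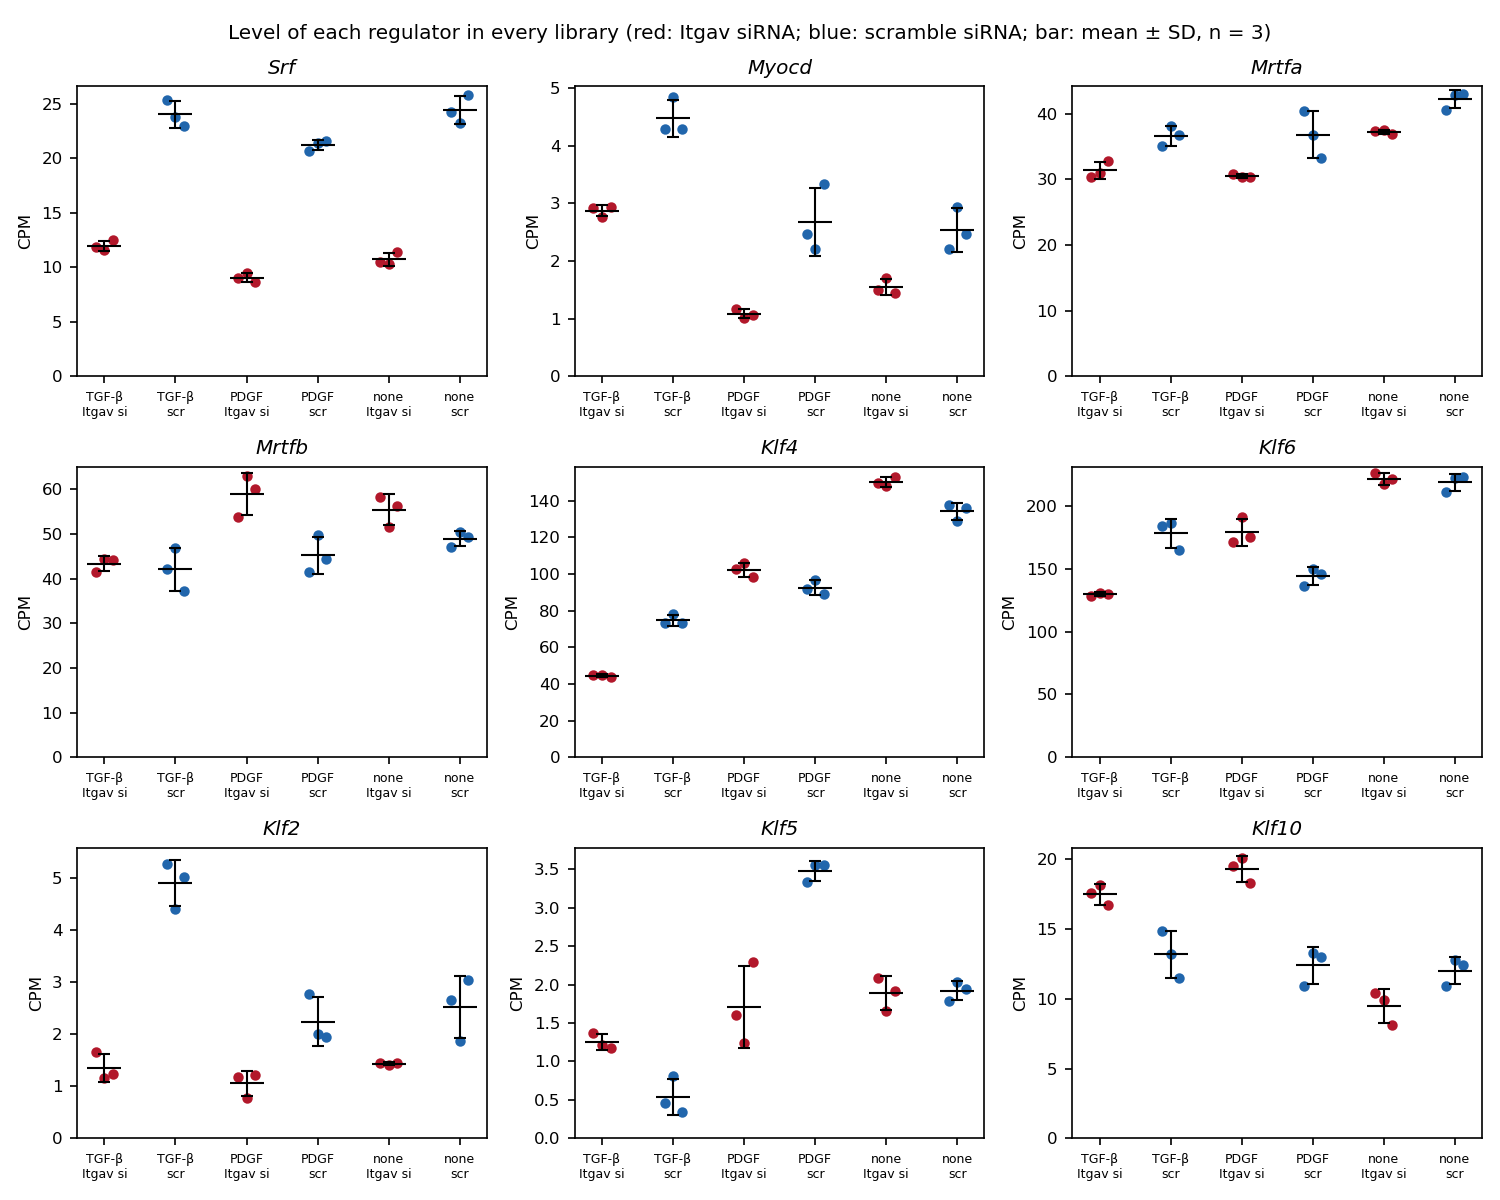
Level of each regulator in CPM (vertical axes, from 0) in each of the 18 libraries, grouped along the horizontal axis by medium and siRNA (red, Itgav siRNA; blue, scramble), with bars for the mean ± SD of 3 libraries. The red Srf points, between 8.68 and 12.5 CPM, all lie below the blue ones, between 20.7 and 25.8 CPM.

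Srf, the shared DNA-binding partner of the family, stood at 42.8% to 49.9% of its scramble level wherever Itgav siRNA had been given. In the fit of all 18 libraries with the low-count filter, Srf and no other regulator was called lower by at least 2-fold in all 3 media, a rule met by 1.35% of all genes tested. With TGF-β the siRNA libraries held 11.9, 11.6 and 12.5 CPM and the scramble libraries 25.4, 23.8 and 23 CPM. The log2 fold change was -1.0 ± 0.073 (edgeR adjusted p = 1.4e-10), at the 2-fold limit itself. It was -0.973 without scramble TGF-β replicate 1, -0.982 without Itgav siRNA TGF-β replicate 2, -0.987 among genes with a mean of 1 CPM or more and -0.999 with DESeq2 or its size factors, and in these fits Srf was called lower but missed the 2-fold rule. With PDGF-BB the siRNA libraries held 9.04, 9.48 and 8.68 CPM, against 20.7, 21.4 and 21.6 CPM in scramble libraries. No siRNA library reached any scramble library of its medium, and the PDGF-BB difference was -1.22 ± 0.074 (edgeR adjusted p = 5e-12). Without stimulus the siRNA libraries held 10.5, 10.3 and 11.4 CPM and the scramble libraries 24.3, 23.3 and 25.8 CPM, a log2 fold change of -1.19 ± 0.072 (edgeR adjusted p = 6.3e-12). The siRNA effect on Srf was not called different between media: its difference from the unstimulated effect was 0.18 under TGF-β (95% interval -0.031 to 0.398) and -0.04 under PDGF-BB (-0.252 to 0.18).

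The stimuli moved Srf far less than the siRNA did. TGF-β gave a log2 fold change of 0.16 ± 0.078 in Itgav siRNA cells (95% interval -0.002 to 0.323) and of -0.02 ± 0.067 in scramble cells (-0.162 to 0.116), neither past the threshold. With PDGF-BB, Srf fell by 0.24 on the log2 scale in Itgav siRNA cells (edgeR adjusted p = 0.021) and fell by 0.21 in scramble cells (0.019). Both of these calls were lost without a low-count filter, with DESeq2 and in fits of the compared groups alone, where adjusted p lay between 0.056 and 0.1. In Itgav siRNA cells the edgeR call was also lost without unstimulated replicate 3 (adjusted p = 0.091) or PDGF-BB replicate 3 (0.077), and in scramble cells without unstimulated replicate 3 (0.11) or PDGF-BB replicate 1 (0.066).

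Srf (ENSMUSG00000015605, chromosome 17, 46548329 to 46556175, minus strand, GENCODE M21) is itself a gene with CArG boxes in its promoter. The stretch from 150 to 31 bases before its RefSeq start, chr17:46556193-46556312 on the minus strand of GRCm38.p6, is printed because it holds the motif that its own product binds, with the CArG boxes in capitals.
Srf: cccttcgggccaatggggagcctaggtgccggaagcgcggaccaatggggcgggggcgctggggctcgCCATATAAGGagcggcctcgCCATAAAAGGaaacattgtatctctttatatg
The boxes lie 82 to 73 and 62 to 53 bases before the start. Searched on both strands, a CArG box was present in 1.63% of 32851 RefSeq promoter windows of 300 bases, and at least 2 were present in 0.0183%, which is 6 windows. Of the 9 regulators, 6 have a window in that table, and the other 5 of these, Klf2, Klf4, Klf6, Mrtfa and Mrtfb, hold no such letters there.

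Myocd, the coactivator most closely tied to contractile genes, was low in these cultures and moved with both the siRNA and TGF-β. With TGF-β it held 2.92, 2.76 and 2.94 CPM in Itgav siRNA libraries and 4.29, 4.84 and 4.28 CPM in scramble libraries. With PDGF-BB it held 1.17, 1.01 and 1.07 CPM with Itgav siRNA and 2.47, 2.21 and 3.33 CPM with scramble. Without stimulus it held 1.5, 1.71 and 1.45 CPM with Itgav siRNA and 2.2, 2.94 and 2.47 CPM with scramble. The siRNA libraries lay below the scramble libraries of the same medium in each case, although each value rests on only 20 to 90 counts. The log2 fold changes were -0.64 ± 0.17 with TGF-β (edgeR adjusted p = 0.0043), -1.30 ± 0.20 with PDGF-BB (1e-05) and -0.70 ± 0.20 without stimulus (0.0044). The PDGF-BB effect minus the unstimulated effect was -0.60 (95% interval -1.195 to -0.011), which missed the threshold after adjustment (edgeR adjusted p = 0.15).

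TGF-β raised Myocd under either siRNA. The log2 fold change was 0.88 ± 0.20 in Itgav siRNA cells (edgeR adjusted p = 0.00052) and 0.82 ± 0.17 in scramble cells (edgeR adjusted p = 0.00046), and the difference between these, 0.06, had a 95% interval of -0.475 to 0.6. Itgav siRNA cells given TGF-β held a mean of 2.87 ± 0.098 CPM and unstimulated scramble cells 2.54 ± 0.38 CPM, and these groups overlapped. With PDGF-BB neither change passed the threshold, at -0.52 in Itgav siRNA cells (95% interval -0.977 to -0.062, edgeR adjusted p = 0.071) and 0.08 in scramble cells (-0.292 to 0.459).

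Mrtfa, the actin-sensing coactivator that is broadly expressed, fell by a small amount in every medium. It held 30.4, 30.9 and 32.8 CPM with Itgav siRNA and 35.1, 38.1 and 36.7 CPM with scramble under TGF-β. Under PDGF-BB it held 30.8, 30.3 and 30.4 CPM with Itgav siRNA and 40.4, 36.7 and 33.3 CPM with scramble. The unstimulated values were 37.3, 37.5 and 36.9 CPM with Itgav siRNA and 40.6, 42.9 and 43 CPM with scramble. No siRNA library reached a scramble library of its medium, and 85.6%, 83% and 88.4% of the scramble level was left in these 3 media. The log2 fold changes were -0.23 ± 0.064 (edgeR adjusted p = 0.0057), -0.27 ± 0.063 (0.00086) and -0.18 ± 0.061 (0.018). The unstimulated call was lost without scramble replicate 2, without scramble replicate 3 or without Itgav siRNA replicate 3, with adjusted p up to 0.07. Both stimuli lowered Mrtfa as well. The log2 fold change with TGF-β was -0.25 in Itgav siRNA cells (edgeR adjusted p = 0.002) and -0.20 in scramble cells (0.01), and with PDGF-BB it was -0.29 in Itgav siRNA cells (0.00091) and -0.20 in scramble cells (0.014). In scramble cells the TGF-β call was lost without TGF-β replicate 1 (edgeR adjusted p = 0.067). The PDGF-BB call was lost there without unstimulated replicate 2, unstimulated replicate 3 or PDGF-BB replicate 3, with adjusted p up to 0.12, and in the fit of the compared groups alone (0.068). Mrtfa shares 10 exonic bases with Sgsm3 on the other strand, which the counting may not separate.

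Mrtfb, its close relative, did not follow it in the siRNA effect. Under PDGF-BB it rose with Itgav siRNA, to 53.8, 63 and 60.2 CPM against 41.6, 49.7 and 44.5 CPM in scramble libraries, a log2 fold change of 0.38 ± 0.077 (edgeR adjusted p = 2e-04). Under TGF-β it held 41.5, 44.5 and 44.1 CPM with Itgav siRNA and 42.2, 46.8 and 37.3 CPM with scramble, and the difference was 0.04 (95% interval -0.127 to 0.21). Without stimulus it held 58.4, 51.7 and 56.3 CPM with Itgav siRNA and 47.2, 50.5 and 49.3 CPM with scramble. The groups overlapped under TGF-β alone. The unstimulated difference of 0.18 ± 0.077 missed the threshold (edgeR adjusted p = 0.057) and passed it under several alternatives, with adjusted p over all alternatives between 0.0083 and 0.18. TGF-β lowered Mrtfb under either siRNA, as it did Mrtfa. The fall of Mrtfb on the log2 scale was 0.35 in Itgav siRNA cells (edgeR adjusted p = 0.00055) and 0.22 in scramble cells (0.028). The scramble call was lost without unstimulated replicate 2 or 3 and without TGF-β replicate 1 or 3, with adjusted p up to 0.2. The log2 fold change with PDGF-BB was 0.09 in Itgav siRNA cells (95% interval -0.07 to 0.249) and -0.12 in scramble cells (-0.277 to 0.048).

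**Figure D2:**
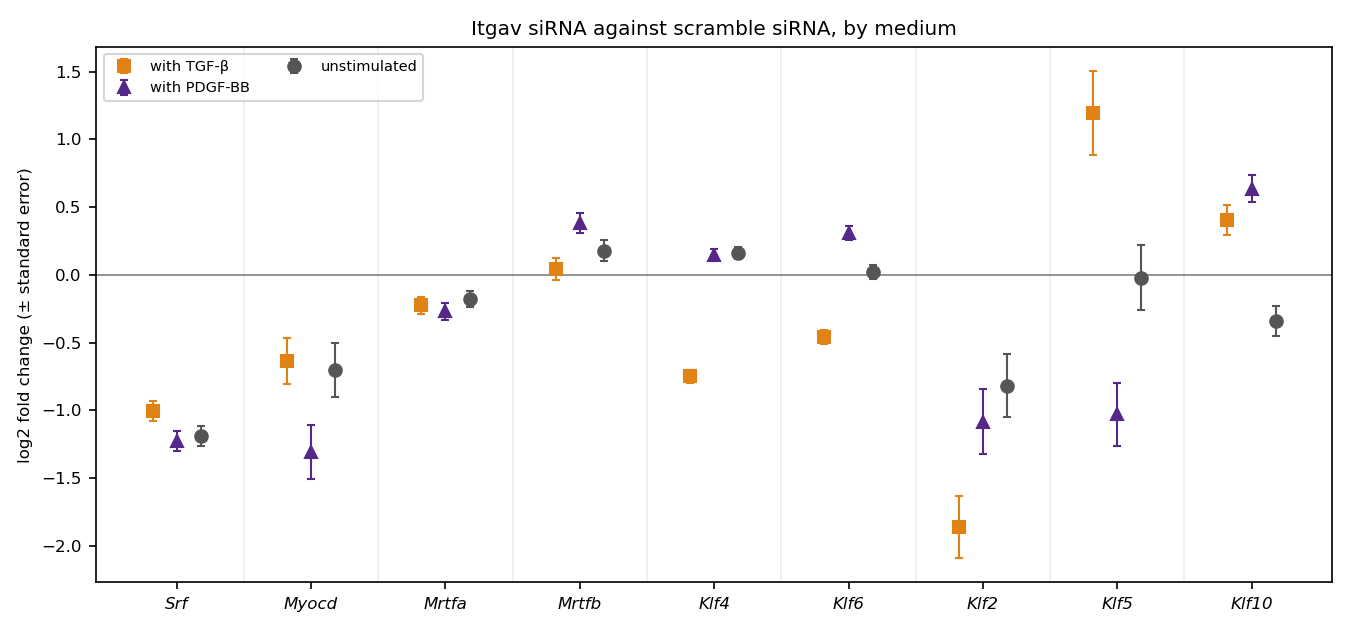
Log2 fold change of Itgav siRNA against scramble (vertical axis) for each regulator (horizontal axis) with TGF-β, with PDGF-BB and without stimulus, with bars of 1 standard error either side. Srf lies between -1.22 and -1.0 in all 3 media, whereas Klf5 lies at 1.19 with TGF-β and at -1.03 with PDGF-BB.

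Klf4, the factor most studied in smooth muscle that loses its contractile genes, had the difference between media with the smallest adjusted p of the 9. With TGF-β it held 44.9, 45.1 and 43.6 CPM in Itgav siRNA libraries and 73.1, 78.3 and 73.1 CPM in scramble libraries. The PDGF-BB values were 103, 106 and 98.4 CPM with Itgav siRNA and 91.9, 96.8 and 88.9 CPM with scramble. The unstimulated values were 150, 148 and 153 CPM with Itgav siRNA and 138, 129 and 136 CPM with scramble. Thus the siRNA libraries lay below scramble with TGF-β and above it in the other 2 media, with no overlap in any. The log2 fold changes were -0.75 ± 0.049 with TGF-β (edgeR adjusted p = 2.5e-11), 0.15 ± 0.045 with PDGF-BB (0.0077) and 0.16 ± 0.044 without stimulus (0.0039). The PDGF-BB call was lost without a low-count filter (edgeR adjusted p = 0.053) and without scramble PDGF-BB replicate 3 (0.051), and adjusted p over its other alternatives went down to 0.003.

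In response to TGF-β, Klf4 fell by 1.75 ± 0.048 on the log2 scale in Itgav siRNA cells (edgeR adjusted p = 2.3e-18) and fell by 0.84 ± 0.046 in scramble cells (8.1e-13). The test of the difference gave -0.91 ± 0.066 (edgeR adjusted p = 1.3e-09). In response to PDGF-BB it fell by 0.55 in Itgav siRNA cells (edgeR adjusted p = 1.4e-09) and fell by 0.54 in scramble cells (3e-09), and the difference was -0.01 (95% interval -0.145 to 0.119).

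Klf6, a zinc-finger factor studied in wound repair and fibrosis, was the most abundant of the 9 per kilobase and fell with Itgav siRNA under TGF-β, as Klf4 did. With TGF-β it held 128, 131 and 130 CPM with Itgav siRNA and 184, 186 and 165 CPM with scramble. With PDGF-BB it held 171, 191 and 175 CPM with Itgav siRNA and 136, 150 and 146 CPM with scramble. Without stimulus it held 226, 217 and 221 CPM with Itgav siRNA and 211, 222 and 223 CPM with scramble. The groups were separate with either stimulus and overlapped without one. The log2 fold changes were -0.46 ± 0.052 (edgeR adjusted p = 1.5e-07), 0.31 ± 0.051 (1.9e-05) and 0.02 ± 0.051 (95% interval -0.086 to 0.125). Given TGF-β, Klf6 fell by 0.77 on the log2 scale in Itgav siRNA cells (edgeR adjusted p = 1.7e-11) and fell by 0.29 in scramble cells (5.3e-05), a difference of -0.48 ± 0.073 (3.6e-05). Given PDGF-BB, it fell by 0.31 in Itgav siRNA cells (edgeR adjusted p = 4.7e-05) and fell by 0.60 in scramble cells (4.1e-09), a difference of 0.29 ± 0.072 (0.0068).

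Klf2, the flow-responsive factor of endothelium, was a low gene here with 17 to 91 counts per library, and it fell in every medium with Itgav siRNA. With TGF-β it held 1.66, 1.16 and 1.23 CPM with Itgav siRNA and 5.28, 4.41 and 5.03 CPM with scramble, a log2 fold change of -1.86 ± 0.23 (edgeR adjusted p = 4.3e-07). The PDGF-BB values were 1.17, 0.782 and 1.22 CPM with Itgav siRNA and 2.78, 2.01 and 1.94 CPM with scramble, a log2 fold change of -1.08 ± 0.24 (edgeR adjusted p = 0.00063). The unstimulated values were 1.45, 1.41 and 1.45 CPM with Itgav siRNA and 2.66, 1.88 and 3.05 CPM with scramble, a log2 fold change of -0.82 ± 0.23 (edgeR adjusted p = 0.0049). All 9 siRNA libraries lay below all 9 scramble libraries. The summed level of 10 endothelial markers was 116 to 123 CPM with Itgav siRNA and 123 to 139 CPM with scramble under TGF-β, 95.9 to 114 and 124 to 143 CPM under PDGF-BB, and 86.2 to 102 and 104 to 123 CPM without stimulus. Among them Erg, set apart after its values were seen, stood far above its unstimulated level with TGF-β, at 46.4 CPM with Itgav siRNA and 45.4 CPM with scramble, against 6.03 and 7.01 CPM. The other 9 summed to 70.4 to 76 CPM with Itgav siRNA and 76.6 to 92.7 CPM with scramble under TGF-β, 88.7 to 107 and 114 to 133 CPM under PDGF-BB, and 80.6 to 95.9 and 98.2 to 115 CPM without stimulus. These siRNA sums lay below the scramble sums in every medium. With Itgav siRNA, 2, 6 and 4 of the 10 endothelial markers fell in these media, where 24.3%, 29.9% and 27.5% of all genes did. The siRNA raised 1, 0 and 1 of them, where 24.1%, 29.4% and 25.9% of all genes rose. No marker was at 0 in all 18 libraries, and the part of endothelial RNA in the Klf2 values was not tested.

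In Itgav siRNA cells the log2 fold change of Klf2 with TGF-β was -0.09 ± 0.26 (95% interval -0.624 to 0.44), whereas in scramble cells TGF-β raised it, with a log2 fold change of 0.95 ± 0.20 (edgeR adjusted p = 0.00051). The difference, -1.04 ± 0.33, passed the threshold (edgeR adjusted p = 0.024) but not without scramble unstimulated replicate 2 (0.056), Itgav siRNA TGF-β replicate 2 (0.06) or Itgav siRNA TGF-β replicate 3 (0.057). PDGF-BB gave -0.44 in Itgav siRNA cells (95% interval -0.986 to 0.099) and -0.18 in scramble cells (-0.629 to 0.273). The Klf2 gene (ENSMUSG00000055148, chromosome 8, 72319033 to 72321656, plus strand) is known for a MEF2 site in its promoter through which shear stress acts in endothelium, and the stretch holding it, chr8:72318912-72319031 on the plus strand of GRCm38.p6, is shown with that site in capitals.
Klf2: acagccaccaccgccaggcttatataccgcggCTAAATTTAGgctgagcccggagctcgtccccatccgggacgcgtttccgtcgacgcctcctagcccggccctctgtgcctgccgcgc
The site lies 118 to 109 bases before the RefSeq start, and a MEF2 site on either strand was present in 3.19% of the same windows. Among the other regulators with a window, Mrtfb also held a MEF2 site, in 1 of its windows, and Klf4, Klf6, Srf and Mrtfa held none. The MEF2 search was added after the Klf2 sequence had been seen.

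Klf5, a factor tied to smooth muscle growth and remodelling, was the lowest regulator in scramble cells given TGF-β and moved in opposite directions with the siRNA under the different stimuli. With TGF-β it held 1.37, 1.21 and 1.18 CPM with Itgav siRNA and 0.464, 0.806 and 0.347 CPM with scramble. The scramble TGF-β libraries hold only 6 to 15 counts each. With PDGF-BB it held 1.61, 1.24 and 2.29 CPM with Itgav siRNA and 3.33, 3.55 and 3.56 CPM with scramble. Without stimulus it held 2.09, 1.66 and 1.92 CPM with Itgav siRNA and 1.79, 2.03 and 1.94 CPM with scramble. The siRNA libraries were all above scramble with TGF-β, all below it with PDGF-BB, and overlapped it without stimulus. The log2 fold changes were 1.19 ± 0.31 (edgeR adjusted p = 0.0032), -1.03 ± 0.23 (5e-04) and -0.02 ± 0.24 (95% interval -0.517 to 0.473).

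In scramble cells Klf5 fell by 1.80 ± 0.29 on the log2 scale with TGF-β (edgeR adjusted p = 2.2e-05), while PDGF-BB raised it by 0.86 ± 0.22 (0.0044). In Itgav siRNA cells the log2 fold changes were -0.59 with TGF-β (95% interval -1.12 to -0.056, edgeR adjusted p = 0.055) and -0.15 with PDGF-BB (-0.651 to 0.355). The differences, 1.22 ± 0.39 for TGF-β (edgeR adjusted p = 0.029) and -1.01 ± 0.33 for PDGF-BB (0.037), passed the threshold narrowly. Without a low-count filter neither passed (edgeR adjusted p = 0.064 and 0.062). The TGF-β difference was lost without replicate 2 of either unstimulated group, scramble TGF-β replicate 1 or 3, or Itgav siRNA TGF-β replicate 1, with adjusted p up to 0.091. The PDGF-BB difference was kept in 4 of 12 fits that left out a library, with adjusted p up to 0.1. It was lost without any of the scramble unstimulated libraries, Itgav siRNA unstimulated replicate 1 or 3, scramble PDGF-BB replicate 3, or Itgav siRNA PDGF-BB replicate 1 or 2.

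Klf10, a TGF-β-inducible early gene, responded to both stimuli after Itgav siRNA. With TGF-β it held 17.6, 18.2 and 16.7 CPM with Itgav siRNA and 14.9, 13.2 and 11.5 CPM with scramble. The PDGF-BB values were 19.5, 20.1 and 18.3 CPM with Itgav siRNA and 10.9, 13.3 and 13 CPM with scramble. The unstimulated values were 10.4, 9.94 and 8.14 CPM with Itgav siRNA and 10.9, 12.8 and 12.4 CPM with scramble. The siRNA libraries lay above scramble with either stimulus and below it without one, with no overlap. The log2 fold changes were 0.41 ± 0.11 with TGF-β (edgeR adjusted p = 0.003), 0.64 ± 0.10 with PDGF-BB (1.5e-05) and -0.34 ± 0.11 without stimulus (0.013). The unstimulated call was lost without scramble replicate 2 (edgeR adjusted p = 0.059) or Itgav siRNA replicate 3 (0.1), and adjusted p over its other alternatives went down to 0.007. TGF-β raised Klf10 by 0.88 ± 0.11 in Itgav siRNA cells (edgeR adjusted p = 3.4e-07), against 0.14 (95% interval -0.089 to 0.36) in scramble cells. PDGF-BB raised it by 1.02 ± 0.11 in Itgav siRNA cells (edgeR adjusted p = 7.8e-08), against 0.04 (-0.18 to 0.266) in scramble cells. Both differences passed the test, at 0.75 ± 0.15 for TGF-β (edgeR adjusted p = 0.00096) and 0.98 ± 0.15 for PDGF-BB (1e-04).

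**Figure D3:**
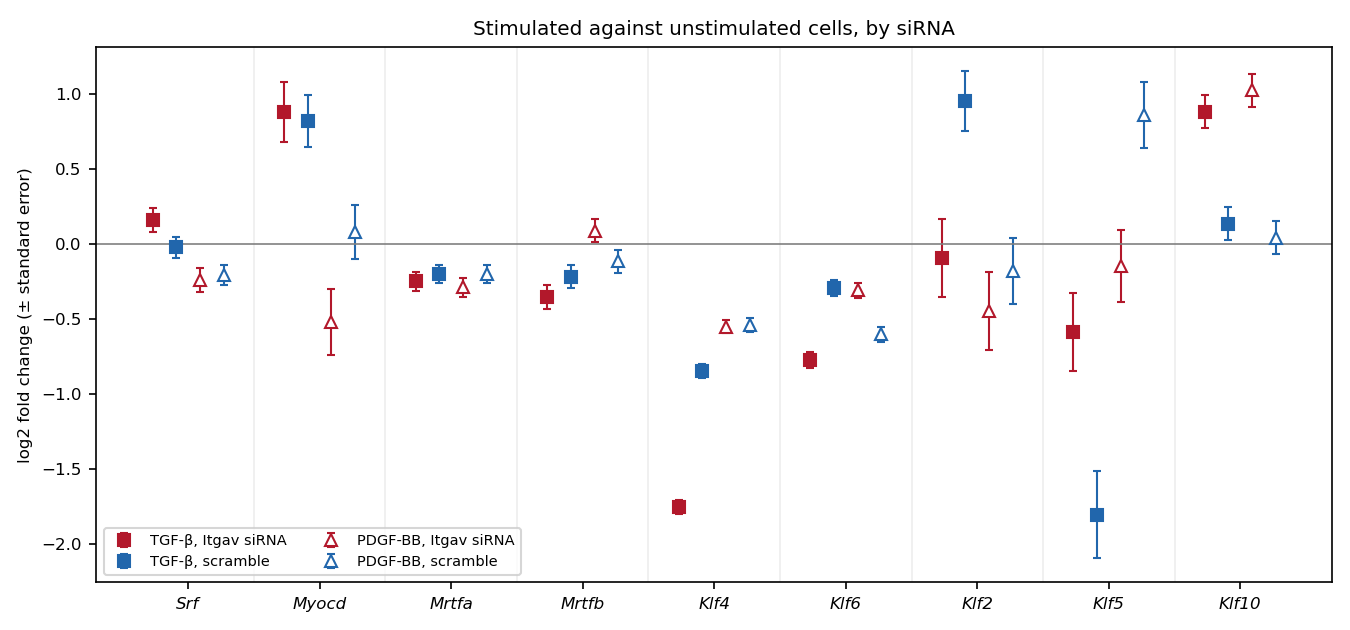
Log2 fold change of TGF-β or PDGF-BB against unstimulated cells (vertical axis) for each regulator (horizontal axis), in Itgav siRNA cells (red) and scramble cells (blue), with bars of 1 standard error either side. Klf4 under TGF-β lies at -1.75 with Itgav siRNA and at -0.84 with scramble, while Myocd under TGF-β lies at 0.88 and 0.82.

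Read across the 9 regulators, TGF-β raised 2 and lowered 4 in Itgav siRNA cells, where 27.9% and 29.6% of all genes were called (57.5% in either direction), and raised 2 and lowered 5 in scramble cells, where 23.4% and 24.8% were (48.3%). PDGF-BB raised 1 and lowered 4 in Itgav siRNA cells, where 17.2% and 19.2% of all genes were called (36.4% in either direction), and likewise 1 and 4 in scramble cells, where 16.9% and 19.2% were (36.1%). The siRNA effect under TGF-β was higher than the unstimulated effect for Klf5 and Klf10 and lower for Klf2, Klf4 and Klf6, that is 2 and 3 of 9, where 12.2% and 11% of all genes were called (23.2% in either direction). Under PDGF-BB it was higher for Klf6 and Klf10 and lower for Klf5, that is 2 and 1 of 9, where 9.51% and 9.32% of all genes were called (18.8% in either direction). For Srf, Myocd, Mrtfa and Mrtfb neither difference passed. The comparisons of the siRNA and of the stimuli share libraries, so their values are given side by side without a measure of likeness between them.

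The order of the groups differed from gene to gene. Klf4 had 6 separate levels: Itgav siRNA unstimulated at the top with a mean of 150 CPM, then scramble unstimulated at 134, Itgav siRNA PDGF-BB at 102, scramble PDGF-BB at 92.5, scramble TGF-β at 74.8 and Itgav siRNA TGF-β at 44.6, with no overlap between neighbours. Srf had scramble unstimulated and scramble TGF-β at the top, overlapping at 24.4 and 24.1 CPM, and all Itgav siRNA groups at the bottom, from 12 CPM with TGF-β to 9.07 CPM with PDGF-BB. Klf10 was highest in Itgav siRNA cells given PDGF-BB, at 19.3 CPM, and lowest in unstimulated Itgav siRNA cells, at 9.48 CPM, while the 3 scramble groups overlapped in turn between 13.2 and 12 CPM. Klf5 was highest in scramble PDGF-BB cells, at 3.48 CPM, and lowest in scramble TGF-β cells, at 0.539 CPM. Neither of these groups overlapped its neighbour in the order, while the 4 groups between them overlapped in turn.

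Per kilobase of transcript, in unstimulated scramble cells, Klf6 stood at 51.8 CPM per kilobase and Klf4 at 44.4. Mrtfa at 9.97, Srf at 9.39 and Mrtfb at 6.1 CPM per kilobase formed a middle range, with Klf10 at 4.03. Klf2 at 1.37, Klf5 at 0.572 and Myocd at 0.523 CPM per kilobase were the lowest. The length used for Mrtfa covers transcripts holding 69.4% of its counts. After Itgav siRNA, Srf dropped below Mrtfb on this scale in every medium, at 4.61 against 5.39 with TGF-β, 3.48 against 7.34 with PDGF-BB and 4.13 against 6.9 without stimulus.

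Klf2, Klf4, Klf5, Klf6 and Srf each had a single transcript with at least 96.9% of the estimated counts in every library, and ENSMUST00000149359 held 87.5% to 95.7% of Mrtfb. The Klf10 transcripts ENSMUST00000074043 and ENSMUST00000226363 traded places between replicates of the same group, with shares from 0% to 100% for ENSMUST00000074043. Mrtfa transcripts ENSMUST00000149582 and ENSMUST00000239114 were given equal shares in every library, between 21.6% and 43.4%. The Myocd transcript ENSMUST00000151483, annotated without a defined coding sequence, took 31.2%, 26% and 32.2% of the estimated counts in unstimulated Itgav siRNA libraries and 0% in each scramble library. With PDGF-BB it took 43.3%, 40.3% and 19.4% with Itgav siRNA and 0%, 0% and 16.6% with scramble, and with TGF-β 0% in each Itgav siRNA library and 0%, 6.7% and 5.7% with scramble. The groups were separate without stimulus and with PDGF-BB. The coding transcript ENSMUST00000108695 averaged 22.4% with Itgav siRNA and 93.7% with scramble under PDGF-BB, 60.1% and 74.2% under TGF-β, and 64.9% and 75.6% without stimulus. These shares divide 20 to 90 counts a library, ranged from 0% to 67.3% within a group for ENSMUST00000108695, and were not tested, so the Myocd gene count does not separate coding from other transcripts.

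The genes most like each regulator were taken as the 3 with the highest Pearson r of log2 CPM over the 18 libraries, among 10337 genes whose mean was 5 CPM or more. The 9 regulators themselves and genes without an ordinary symbol were not candidates. The libraries fall into 6 groups, so these values describe shared group levels and carry no p. For Srf they were Abat (0.989), Mmgt1 (0.988) and Rtn3 (0.988), and for Klf4 they were Thra (0.988), Dapk1 (0.984) and Maoa (0.984). Myocd was closest to Fgd3 (0.97), Thoc7 (0.961) and Ankrd1 (0.957), Mrtfa to Adamtsl4 (0.947), Tprgl (0.945) and Fancc (0.943), and Mrtfb to Pds5b (0.951), Atf7ip (0.94) and Peak1 (0.939). Klf6 was closest to Plscr4 (0.965), Sbf2 (0.961) and Tfdp2 (0.957), and Klf10 to Adamts4 (0.93), Hif1a (0.925) and Reep3 (0.922). Klf2 was closest to Bex3 (0.943), Tgm2 (0.941) and Capn10 (0.936), and Klf5 to Cplx2 (0.911), Lrrc32 (0.883) and Supt16 (0.876).

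Genes known as contractile targets of SRF and myocardin were mostly lower with Itgav siRNA. Of 21 tested, 19 fell and 1 rose with TGF-β, 14 fell and 5 rose with PDGF-BB, and 13 fell and 5 rose without stimulus, with median log2 fold changes of -1.03, -0.53 and -0.44. For this list and those below, 24.3% of all genes fell and 24.1% rose with TGF-β. The shares were 29.9% and 29.4% with PDGF-BB, and 27.5% and 25.9% without stimulus. Acta2, smooth muscle α-actin, fell to 2060 CPM against 4230 CPM in scramble with TGF-β, to 125 against 393 CPM with PDGF-BB and to 524 against 1060 CPM without stimulus. Myl9, a regulatory myosin light chain, had log2 fold changes of -1.67, -2.13 and -1.45 in the same media, with edgeR adjusted p between 8.5e-15 and 1.6e-12. Pgm5, a phosphoglucomutase-like protein of adhesion sites, went the other way and rose in all 3 media, by 0.34 with TGF-β, 0.73 with PDGF-BB and 1.72 without stimulus, with edgeR adjusted p up to 0.04. TGF-β raised 11 and lowered 9 of the list in Itgav siRNA cells, and raised 15 and lowered 6 in scramble cells. PDGF-BB raised 1 and lowered 13 in Itgav siRNA cells, and raised 3 and lowered 14 in scramble cells. Of all genes, TGF-β raised 27.9% and lowered 29.6% in Itgav siRNA cells, and 23.4% and 24.8% in scramble cells. The shares with PDGF-BB were 17.2% and 19.2% in Itgav siRNA cells, and 16.9% and 19.2% in scramble cells. These shares also apply to the stimulus counts of the lists below.

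Cytoskeletal targets of SRF and the MRTFs were also mostly lower. Of 24 tested, 17 fell and 3 rose with TGF-β, 16 fell and 3 rose with PDGF-BB, and 17 fell and 4 rose without stimulus, with medians of -0.44, -0.75 and -0.42. Fhl1, a LIM-domain protein, fell to 225 CPM against 931 CPM in scramble with TGF-β, to 231 against 764 CPM with PDGF-BB and to 544 against 1390 CPM without stimulus. Actb, cytoplasmic β-actin, fell by 0.80 on the log2 scale with TGF-β (edgeR adjusted p = 1.7e-14) and fell by 1.45 with PDGF-BB (1.7e-18). Itgb1, the integrin β1 chain, rose in all 3 media, to 4090 CPM against 3020 CPM with TGF-β, 2440 against 1890 CPM with PDGF-BB and 2080 against 1830 CPM without stimulus. TGF-β raised 14 and lowered 5 of the list in Itgav siRNA cells, and raised 17 and lowered 5 in scramble cells. PDGF-BB raised 5 and lowered 18 in Itgav siRNA cells, and raised 4 and lowered 16 in scramble cells.

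Immediate early targets of SRF and the ternary complex factors were mostly higher. Of 13 tested, 8 rose and 3 fell with TGF-β, 9 rose and 2 fell with PDGF-BB, and 8 rose and 2 fell without stimulus, with medians of 0.38, 0.51 and 0.39. Egr1, an early growth response factor, rose to 22.6 CPM against 7.95 CPM in scramble with TGF-β, to 77.6 against 52.9 CPM with PDGF-BB and to 48.7 against 23.6 CPM without stimulus. Dusp1, a phosphatase of MAP kinases, fell to 29 CPM against 79 CPM with TGF-β, to 48.1 against 82.4 CPM with PDGF-BB and to 65.2 against 128 CPM without stimulus, and Mcl1, a survival factor of the BCL2 family, fell as well. TGF-β raised 4 and lowered 6 of the list in Itgav siRNA cells, and raised 4 and lowered 7 in scramble cells. PDGF-BB raised 8 and lowered 1 in Itgav siRNA cells, and raised 8 and lowered 3 in scramble cells.

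**Figure D4:**
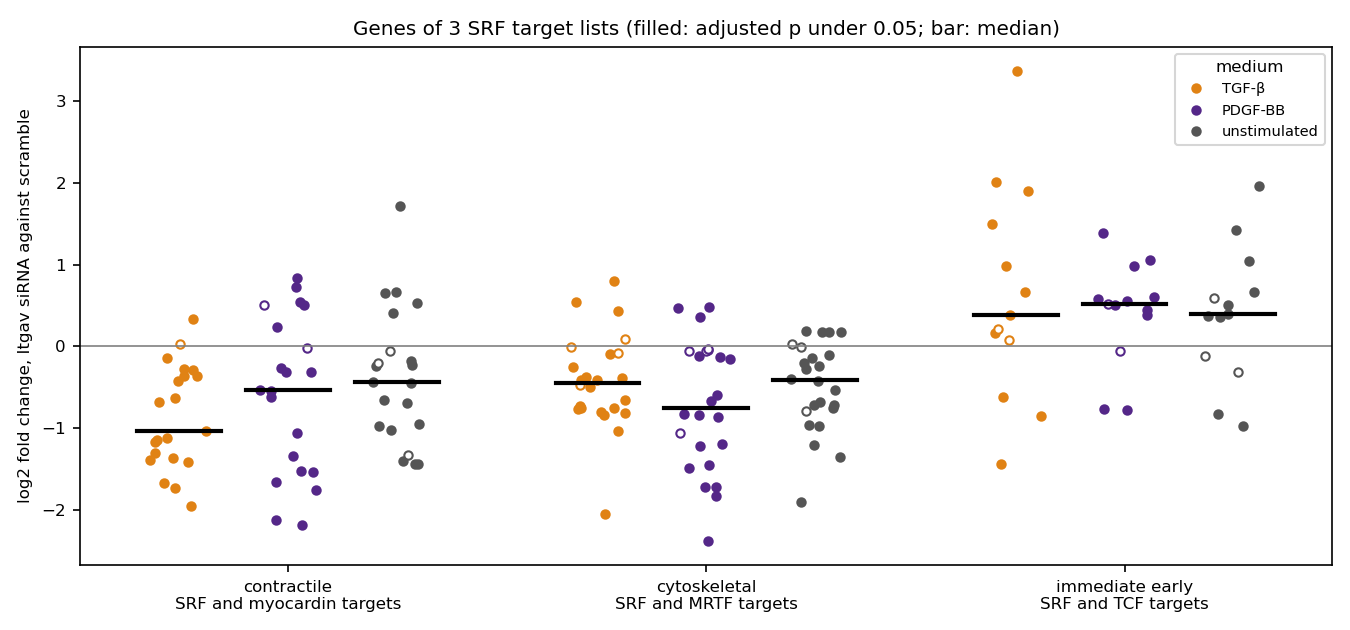
Log2 fold change of Itgav siRNA against scramble (vertical axis) for genes of 3 lists of SRF targets (horizontal axis), with TGF-β, with PDGF-BB and without stimulus. Each point is a gene, filled where the adjusted p was under 0.05, and the bars are medians, which lie between -1.03 and -0.42 for the contractile and cytoskeletal lists and between 0.38 and 0.51 for the immediate early list.

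Partners and antagonists of SRF and myocardin moved in both directions. Of 20 tested, 4 rose and 4 fell with TGF-β, 11 rose and 3 fell with PDGF-BB, and 11 rose and 4 fell without stimulus, with medians of 0.04, 0.22 and 0.20. Of all genes, 24.1% rose and 24.3% fell with TGF-β, 29.4% and 29.9% with PDGF-BB, and 25.9% and 27.5% without stimulus. Prrx1, a homeodomain protein that works with SRF, rose to 157 CPM against 94.3 CPM in scramble with TGF-β, to 330 against 156 CPM with PDGF-BB and to 187 against 102 CPM without stimulus. Foxo4, which binds myocardin and represses it, rose by 0.36, 0.57 and 0.86 on the log2 scale in the same media, with edgeR adjusted p up to 0.00016. Hey2, a Notch target that represses myocardin activity, fell in all 3, with log2 fold changes of -0.84, -1.12 and -0.47 and edgeR adjusted p up to 9.6e-06. Elk3, a ternary complex factor, fell by 0.25 with PDGF-BB (edgeR adjusted p = 5.5e-05) and fell by 0.32 without stimulus (3.4e-06). TGF-β raised 7 and lowered 9 of the list in Itgav siRNA cells, and raised 9 and lowered 4 in scramble cells. PDGF-BB raised 5 and lowered 6 in Itgav siRNA cells, and 4 and 4 in scramble cells. Of all genes, TGF-β raised 27.9% and lowered 29.6% in Itgav siRNA cells, and 23.4% and 24.8% in scramble cells. The shares with PDGF-BB were 17.2% and 19.2% in Itgav siRNA cells, and 16.9% and 19.2% in scramble cells.

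The other members of the Krüppel-like and SP families were measured in part. Of 13 further KLF genes, 9 passed the low-count filter, and with Itgav siRNA 1 rose and 5 fell with TGF-β, 6 rose and 3 fell with PDGF-BB, and 5 rose and 2 fell without stimulus, with medians of -0.20, 0.41 and 0.26. Klf3, a repressor that binds CtBP, held 97.4 CPM against 111 CPM in scramble with TGF-β, 159 against 119 CPM with PDGF-BB and 182 against 152 CPM without stimulus, and was called in each. Klf15, which is high in quiescent smooth muscle and heart, fell by 3.10 with TGF-β on the log2 scale in Itgav siRNA cells (edgeR adjusted p = 1.9e-13) and fell by 2.07 in scramble cells (1.9e-10). Over the 9, TGF-β raised 2 and lowered 4 in Itgav siRNA cells and raised 3 and lowered 3 in scramble cells. PDGF-BB lowered 5 in Itgav siRNA cells and 4 in scramble cells. Of 9 SP genes 7 passed the filter, of which the siRNA raised 1, 4 and 3 and lowered 1, 2 and 2 with TGF-β, with PDGF-BB and without stimulus, with medians of -0.12, 0.30 and 0.11. TGF-β lowered 3 SP genes in Itgav siRNA cells and 2 in scramble cells, among them Sp3, and PDGF-BB lowered 2 in scramble cells. The counts of every list stand beside the shares of all genes called given above for the same comparisons.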

How the data were processed

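RNA libraries of 18 samples in 6 groups were analysed. Per the submitters' processing notes, the tools used included HISAT2 2.2.1 and StringTie 2.1.6 with the build mm10. The authors deposited estimated counts per gene and per transcript, of which 76.2% of gene values above 0 were whole numbers; they were rounded for testing. Strand use in counting is not given in the sources used here. Coordinates are from GENCODE M21 on GRCm38, which holds 90.7% of the gene identifiers and 99.25% of the counts, and promoter sequences from RefSeq on GRCm38.p6.

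All libraries were fitted together in edgeR 4.0.16 (R 4.3.3, limma 3.58.1) with TMM factors of 0.925 to 1.07, filterByExpr at a minimum count of 10, a mean per group, quasi-likelihood F tests and Benjamini-Hochberg adjustment over all genes tested within a comparison. There were 12 residual degrees of freedom, and at least 99.91% of counts were kept. CPM values use TMM-scaled totals of tested genes. Standard errors are the log2 fold change divided by the square root of F. The fit was tested on simulated data. Figures were drawn with Python 3.11.15 and matplotlib 3.10.9.

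The genes named are the 9 regulators, Itgav, the 3 most alike genes per regulator with a mean of at least 5 CPM, and up to 3 called genes of smallest p per list, direction and comparison. The regulators and lists were chosen with earlier results of these data known, and the interferon list and the MEF2 search were added later. A further list is not reported here. As alternatives, the low-count filter was dropped or set to a mean of 1 CPM, DESeq2 1.42.0 replaced edgeR or only its size factors, the replicate number was added as a block, the fit was limited to the groups compared, and libraries were left out singly. Genes on 1 list may stand on another: the smooth muscle markers also belong to the contractile targets. Samples were grouped by their labelled treatment and title.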

Additional observations from a re-analysis of the deposited data

Results flagged for a closer look

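By edgeR's test of the difference itself, the siRNA effect with TGF-β differed from the unstimulated effect for 5 of the 9 regulators, where 23.2% of all genes did, and the effect with PDGF-BB for 3 of the 9, where 18.8% did. Under TGF-β minus unstimulated, the log2 difference was -1.04 for Klf2 (edgeR adjusted p = 0.024), -0.91 for Klf4 (1.3e-09), 1.22 for Klf5 (0.029), -0.48 for Klf6 (3.6e-05) and 0.75 for Klf10 (0.00096). Under PDGF-BB minus unstimulated, it was -1.01 for Klf5 (edgeR adjusted p = 0.037), 0.29 for Klf6 (0.0068) and 0.98 for Klf10 (1e-04). The Klf4, Klf6 and Klf10 differences passed in all 12 fits that left out a library. The Klf2 difference passed in 9 of 12, the Klf5 difference under TGF-β in 7 of 12 and that under PDGF-BB in 4 of 12.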

How the results depend on the processing

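Over the alternatives that keep every library, 472 of 486 values kept their direction and their side of the threshold, 10 lost the threshold, 4 gained it and none changed sign. Over the fits that leave out a library, 541 of 594 did, 34 lost the threshold, 2 gained it and 17 changed sign. Of those 17, none was a called change. The counts of genes called in the 9 comparisons stayed within 1.5-fold under every alternative. The values that changed sign ranged, over libraries left out, from -0.053 to 0.023 for Srf and -0.111 to 0.202 for Myocd under the stimuli in scramble cells (TGF-β and PDGF-BB), and from -0.028 to 0.131 for Klf10 under PDGF-BB in scramble cells. They ranged from -0.268 to 0.002 for Klf2 under TGF-β and from -0.406 to 0.04 for Klf5 under PDGF-BB, both in Itgav siRNA cells. For the siRNA effect they ranged from -0.096 to 0.071 for Klf5 and -0.008 to 0.041 for Klf6 without stimulus, and from -0.045 to 0.123 for Mrtfb with TGF-β. For the differences between media they ranged from -0.065 to 0.157 for Myocd (TGF-β), -0.045 to 0.016 for Klf4 (PDGF-BB) and -0.081 to 0.001 for Srf (PDGF-BB). The cause was not tested. Replicate numbers gave no clear sign of pairing the libraries, although this check cannot exclude it. Deviations from group means correlated with a median r of 2.32e-05 over 45 pairs sharing a number (-0.0878 to 0.0966). The median was -0.002 over 90 pairs that did not, and 8 of 18 libraries correlated best with their own number. With the replicate number as a block, the number of genes called was 9217 for TGF-β in Itgav siRNA cells and 7779 in scramble cells, 5944 and 5909 for PDGF-BB, 7783, 9513 and 8582 for the siRNA with TGF-β, with PDGF-BB and without stimulus, and 3893 and 3349 for the differences under TGF-β and PDGF-BB. In the same order the main fit called fewer genes, at 9101 and 7639, 5766 and 5714, 7662, 9394 and 8457, and 3678 and 2981. Depth limits Klf2, Klf5 and Myocd most, with at most 91 counts in a library.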
